A study of Mus musculus with 6 samples.

Results

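The cathepsins are the proteases of the lysosome and of the space around the cell, and 10 of their genes were followed across 3T3-L1 adipocytes treated with antiretroviral drugs and with isomers of conjugated linoleic acid (CLA). The genes were Ctsa, Ctsb, Ctsc, Ctsd, Ctsf, Ctsh, Ctsk, Ctsl, Ctss and Ctsz, out of 18194 genes with a probe set of their own on the array. They were found by symbol, as probe sets annotated to exactly 1 of these genes. There were 22 such probe sets, and each gene is represented by the one with the highest mean over the 6 arrays. Values are log2 probe set values, and a gene was called detected where its value reached the median of the whole table, 6.55, on at least 1 array. Of the 10 cathepsins 9 did so, and Ctss did not.

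3T3-L1 is a mouse preadipocyte line that turns into fat cells after hormonal induction. In the first experiment, maturing cells received for 5 days ritonavir, an HIV protease inhibitor, at 20 µM, or tenofovir, which blocks the viral reverse transcriptase, at 1 µM, or 0.1% ethanol as the vehicle control. In the second, all cells received ritonavir at 20 µM, together with 0.1% DMSO as control, with c9,t11-CLA at 100 µM or with t10,c12-CLA at 100 µM, so no array of that experiment lacks ritonavir. The 2 CLA isomers differ in where their conjugated double bonds lie. All cells had first been induced with insulin, 3-isobutyl-1-methylxanthine and dexamethasone, and insulin stayed in the medium. RNA of 4 replicate experiments was pooled onto 1 array per group, which leaves no spread between replicates, so that no difference below has a test. In place of that spread, the pair of arrays that lay closest, tenofovir and ethanol, serves as a yardstick. Between them, 95% of the 12386 detected genes differed by no more than 0.260. As the closest pair, from 1 experiment, it sets a low bar. It measures neither the spread of replicates nor that between experiments. Between c9,t11-CLA and DMSO the same bound was 0.298.

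Cathepsins are made as inactive proenzymes, carried to the lysosome by mannose 6-phosphate receptors or sortilin, and activated in its acid lumen by cleavage of their propeptide. Most, among them cathepsins B, C, F, H, K, L, S and Z, are cysteine proteases of the papain type. Cathepsin D is an aspartic protease and cathepsin A a serine carboxypeptidase. In fat tissue, cathepsins K, L and S are known for cleaving matrix proteins while preadipocytes mature, and cathepsins B and D for breakdown of proteins delivered by autophagy. Cystatins are natural inhibitors of the cysteine-type cathepsins. The transcription factors TFEB, TFE3 and MITF are known to activate many lysosomal genes through E-box sites.

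On the ritonavir array, the cathepsins split into genes that were higher and genes that were lower than with ethanol. Ctsk was 4.62-fold, Ctsl 3.02-fold and Ctsa 2.52-fold higher, and Ctsd, Ctsz and Ctsb were higher by smaller amounts. Ctsc was lower and ended below the detection level, and Ctsf and Ctss lay within 0.04 of their ethanol values. In all, 3 of the 10 genes were higher by 2-fold or more, as were 4.56% of detected genes. Of the 10, 1 was lower by 2-fold or more, as were 6.39% of detected genes. This was Ctsc, which differed by -0.50 with its low value raised to the detection level. The median difference of the 10 genes was 0.46, beside 0.00 for all detected genes. The RNA came from whole cultures, so more or fewer cells of a kind and more or less RNA per cell cannot be told apart.

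**Figure D1:**
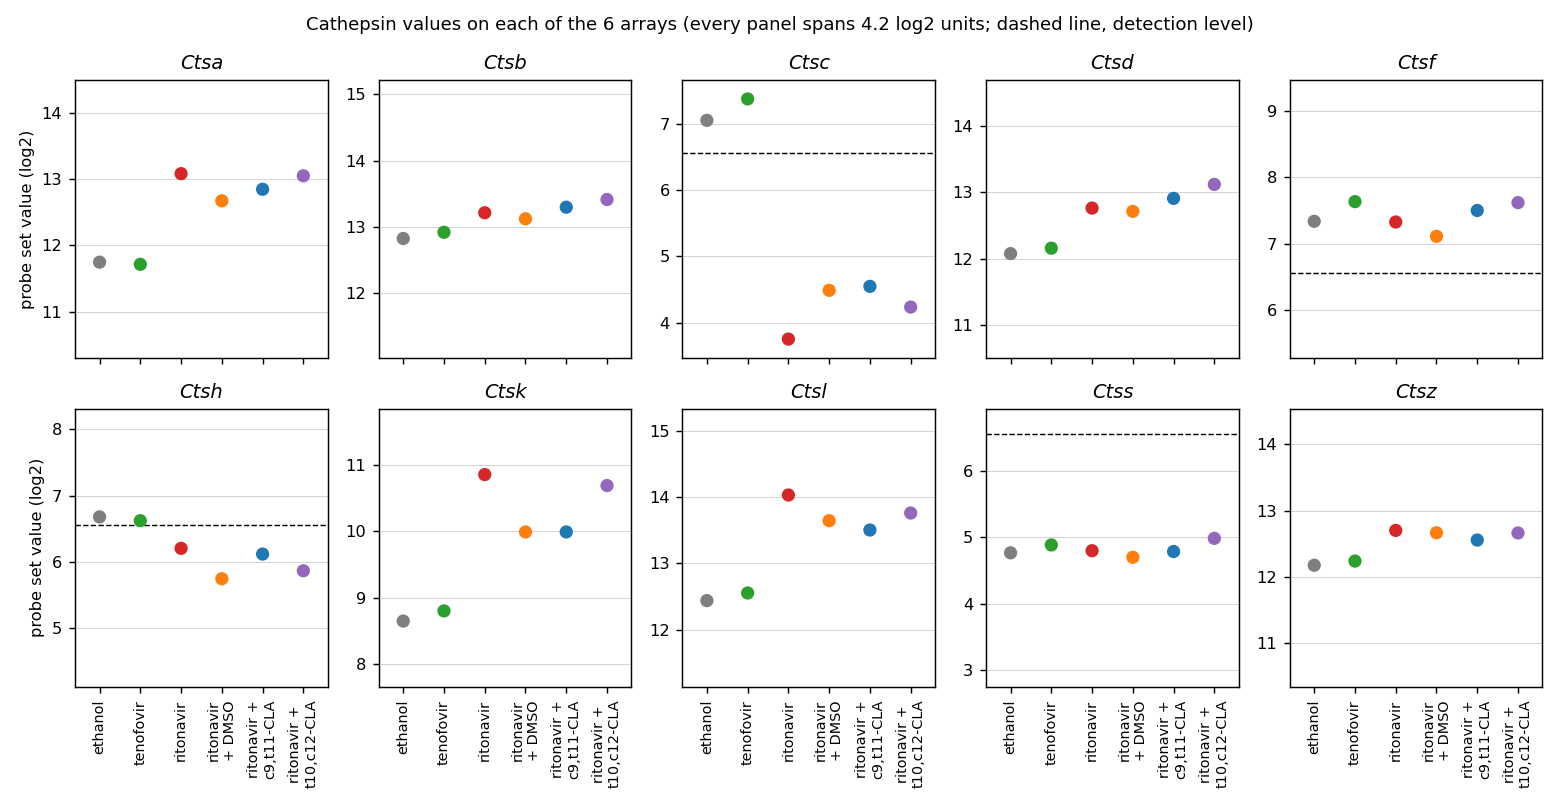
Probe set values (log2) of the 10 cathepsin genes on the 6 arrays, 1 point per array and 1 panel per gene, each panel spanning the same number of log2 units around its own values. Ctsk, Ctsl and Ctsa stand higher on every array with ritonavir than on the ethanol and tenofovir arrays, while Ctsc stands above the dashed detection level of 6.55 on those 2 arrays alone.

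Ctsk encodes cathepsin K, a collagen- and elastin-cleaving endopeptidase best known from bone-resorbing osteoclasts. Its value was 8.65 with ethanol, 8.80 with tenofovir, 10.86 with ritonavir, 9.99 with ritonavir and DMSO, 9.99 with c9,t11-CLA and 10.69 with t10,c12-CLA. The arrays thus fell into 3 levels, with ethanol and tenofovir lowest, DMSO and c9,t11-CLA between, and t10,c12-CLA and ritonavir alone highest. Within each of these pairs the 2 values lay 0.17 or less apart. The difference between ritonavir and ethanol was 2.21, and 51 of the detected genes had a larger upward one. Ctsk has 1 probe set, so no other set checks these values.

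Ctsl encodes cathepsin L, a broad lysosomal endopeptidase that also degrades fibronectin outside the cell. Its value was 12.44 with ethanol, 12.55 with tenofovir, 14.03 with ritonavir, 13.64 with DMSO, 13.50 with c9,t11-CLA and 13.76 with t10,c12-CLA. All 4 arrays with ritonavir lay above the pair without it, by at least 0.95. The ritonavir array again held the highest value, and the spread among the 3 arrays of the second experiment was 0.26. A second probe set stayed at 5.16 or lower on all arrays, under the detection level, and differed by -0.40 between ritonavir and ethanol, so it gives no usable check.

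Ctsa encodes cathepsin A, the carboxypeptidase that also shields beta-galactosidase and neuraminidase 1 in a lysosomal complex. It read 11.75 with ethanol, 11.72 with tenofovir, 13.08 with ritonavir, 12.67 with DMSO, 12.85 with c9,t11-CLA and 13.05 with t10,c12-CLA. The ritonavir and t10,c12-CLA arrays were the highest and differed by 0.03, which is inside the yardstick. Its weaker second probe set read 7.33 with ethanol, 7.80 with ritonavir and 7.25 with DMSO, a difference of 0.47 for ritonavir and of -0.08 for ritonavir with DMSO against ethanol. The size of the Ctsa difference, and the place of all arrays with ritonavir above the others, therefore rest on the brighter set. Of its partners, the neuraminidase gene Neu1 was 1.29 higher with ritonavir and 1.13 higher with ritonavir and DMSO than with ethanol. The beta-galactosidase gene Glb1 differed by -0.46 and -0.18, the latter inside the yardstick. The 2 partners of cathepsin A thus went opposite ways with ritonavir alone.

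Ctsd encodes cathepsin D, the main aspartic protease of the lysosome. Its value was 12.08 with ethanol, 12.16 with tenofovir, 12.76 with ritonavir, 12.71 with DMSO, 12.91 with c9,t11-CLA and 13.12 with t10,c12-CLA. The arrays with ritonavir were all higher, and here t10,c12-CLA, not ritonavir alone, gave the highest value. Ritonavir with DMSO differed from ritonavir by -0.05, inside the yardstick, while each lay at least 0.64 above ethanol. Ctsd is represented by 1 probe set.

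Ctsz encodes cathepsin Z (also called X), a carboxypeptidase. It read 12.17 with ethanol, 12.24 with tenofovir, 12.70 with ritonavir, 12.66 with DMSO, 12.55 with c9,t11-CLA and 12.66 with t10,c12-CLA. The 4 arrays with ritonavir lay within 0.15 of each other, all above the other pair. Its 3 probe sets differed between ritonavir and ethanol by 0.53, 0.45 and 0.80, so all gave the same direction.

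Ctsb encodes cathepsin B, an endopeptidase that also removes dipeptides from the carboxyl end. The set that represents it, the brightest, read 12.82 with ethanol, 12.92 with tenofovir, 13.21 with ritonavir, 13.12 with DMSO, 13.30 with c9,t11-CLA and 13.41 with t10,c12-CLA. These values lie near the top of the scale, which ends at 15.01, and their whole range was 0.59. The dimmer probe sets of the gene spread further. Between ritonavir and ethanol the brightest set differed by 0.39, the next by 0.83, and the 2 after that by 1.01 and 0.66. With t10,c12-CLA against ethanol the same gene read higher on all 4 of these sets, and against DMSO they differed by 0.29, 0.46, 0.44 and 1.10. The last set never reached the detection level and differed by -0.04 for ritonavir. Whether the bright sets are compressed at the top of the scale was not tested.

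**Figure D2:**
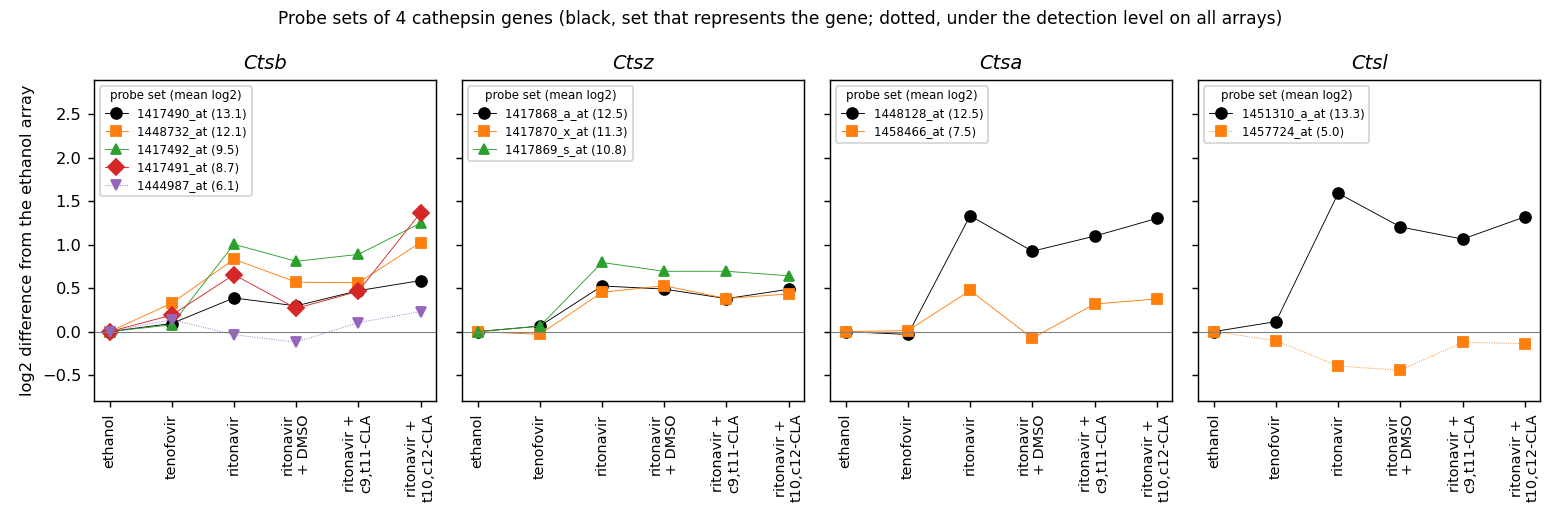
Log2 difference of each probe set from its own value on the ethanol array, for Ctsb, Ctsz, Ctsa and Ctsl, with the 6 arrays along the axis and thin lines joining the points of 1 probe set. On the ritonavir array the black point of the set that represents Ctsb (0.39) lies under those of 3 dimmer sets (0.83, 1.01 and 0.66), an order that does not hold on every other array, and for Ctsl the second set, under the detection level throughout, does not follow the first.

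Ctsc encodes cathepsin C, or dipeptidyl peptidase I, which is known for activating the serine proteases of immune cell granules. Its value was 7.05 with ethanol and 7.37 with tenofovir, but 3.75 with ritonavir, 4.49 with DMSO, 4.55 with c9,t11-CLA and 4.23 with t10,c12-CLA. The groups of arrays with and without ritonavir did not overlap, with a gap of 2.50 between them. The gene passed the detection filter only through the pair of arrays on which it was high. The differences of -3.30 for ritonavir and -2.56 for ritonavir with DMSO against ethanol rest on values under the detection level. With such values raised to that level both became -0.50, Ctsc was no longer 2-fold lower, and 5.91% of detected genes still were. The other 2 probe sets of Ctsc stayed under the level on all arrays, with differences of -0.10 and -0.75 for ritonavir.

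Ctsh encodes cathepsin H, an aminopeptidase. It read 6.68 with ethanol and 6.62 with tenofovir, just above the detection level, and 6.21 with ritonavir, 5.75 with DMSO, 6.12 with c9,t11-CLA and 5.87 with t10,c12-CLA, all below it. Here too the arrays with ritonavir were the lower ones, and the order of values below the level is not relied on. Like Ctsc, the gene passed the detection filter only through the pair of arrays on which it was high. With low values raised to the level, it differed from ethanol by -0.12 with ritonavir and with ritonavir and DMSO. A second probe set lay under the level throughout and differed by -0.73 between ritonavir and ethanol.

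Ctsf encodes cathepsin F, a cysteine protease with an unusually long propeptide, and Ctss encodes cathepsin S, which trims the invariant chain of MHC class II molecules in antigen-presenting cells. Ctsf read 7.33 with ethanol, 7.63 with tenofovir, 7.32 with ritonavir, 7.11 with DMSO, 7.50 with c9,t11-CLA and 7.62 with t10,c12-CLA, with no separation of the arrays with ritonavir from the others. Its 2 probe sets disagreed on t10,c12-CLA against DMSO, at 0.51 and -0.28. Ctss lay between 4.70 and 4.98 on the 6 arrays, well under the detection level. Cd74, the gene of the invariant chain, was 1.08 higher with ritonavir and 1.00 higher with ritonavir and DMSO than with ethanol. None of the other 3 detected genes of the MHC class II list passed 2-fold, and H2-DMa had the lowest difference for ritonavir, -0.09.

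Across the family, the 4 arrays with ritonavir all lay above the 2 without it for 6 genes, Ctsa, Ctsb, Ctsd, Ctsk, Ctsl and Ctsz. They all lay below for 2, Ctsc and Ctsh, which passed the detection filter only through the 2 arrays without ritonavir. For Ctsf and Ctss the arrays overlapped. On the second probe set of Ctsa, which reached the detection level on all 6 arrays, they overlapped too. That set read 7.25 with DMSO and 7.33 with ethanol. Among detected genes, 28.6% had all 4 arrays above and 22.6% all 4 below. These arrays also differ in experiment and in added compound, and 3 of the 4 come from the second experiment, so the ordering is a description of the arrays.

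**Figure D3:**
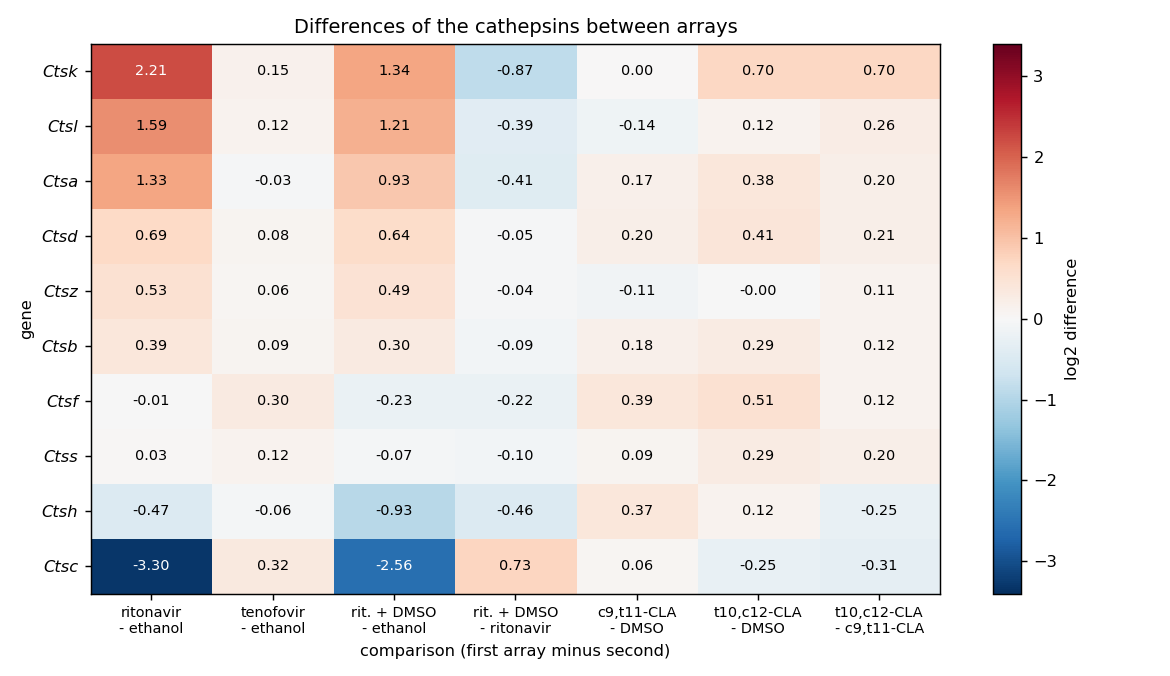
Log2 difference of each cathepsin gene (rows) in the 7 comparisons (columns), written in each cell and coloured red where the first array was higher and blue where it was lower. For ritonavir against ethanol Ctsk stands at 2.21 and Ctsc at -3.30, the latter resting on a value under the detection level (-0.50 with that value raised to it), and the tenofovir and c9,t11-CLA columns hold no value beyond 0.39 in size.

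The promoter windows of the cathepsin genes show where the E-box core known from lysosomal genes lies in those whose values moved together and those whose values did not. The windows, from RefSeq on build GRCm38.p6, reach from 250 bases before to 50 bases after an annotated start. They were found for 8 of the 10 genes, with 2 windows for Ctsa, and not for Ctsb and Ctsh. The letters searched were CACGTG, the E-box core, and TCACGTGA, a longer form that contains it. Both read the same on either strand. In the sequences, printed 5′ to 3′ on the strand of the gene, capitals mark each CACGTG.
Ctsa, second window, chr2:164833523-164833822, plus strand: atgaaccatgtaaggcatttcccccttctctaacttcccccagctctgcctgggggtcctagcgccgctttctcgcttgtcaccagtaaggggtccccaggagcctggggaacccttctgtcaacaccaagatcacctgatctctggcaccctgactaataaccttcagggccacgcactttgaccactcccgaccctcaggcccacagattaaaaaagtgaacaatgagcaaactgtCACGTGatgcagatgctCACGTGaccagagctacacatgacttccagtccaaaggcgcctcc
Ctsd, chr7:142387778-142388077, minus strand: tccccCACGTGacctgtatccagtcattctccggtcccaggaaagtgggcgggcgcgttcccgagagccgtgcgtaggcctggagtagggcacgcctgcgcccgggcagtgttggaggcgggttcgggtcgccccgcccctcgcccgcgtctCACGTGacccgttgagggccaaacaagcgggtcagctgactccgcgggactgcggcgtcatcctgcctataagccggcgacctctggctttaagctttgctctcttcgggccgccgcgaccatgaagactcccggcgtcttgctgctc
Ctsl, chr13:64370471-64370770, minus strand: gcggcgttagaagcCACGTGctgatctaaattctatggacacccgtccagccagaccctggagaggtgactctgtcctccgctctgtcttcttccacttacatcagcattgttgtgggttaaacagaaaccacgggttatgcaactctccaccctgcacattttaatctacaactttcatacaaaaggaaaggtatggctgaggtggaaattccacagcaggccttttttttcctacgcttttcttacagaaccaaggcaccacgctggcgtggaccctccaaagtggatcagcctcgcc
Ctsf, chr19:4854915-4855214, plus strand: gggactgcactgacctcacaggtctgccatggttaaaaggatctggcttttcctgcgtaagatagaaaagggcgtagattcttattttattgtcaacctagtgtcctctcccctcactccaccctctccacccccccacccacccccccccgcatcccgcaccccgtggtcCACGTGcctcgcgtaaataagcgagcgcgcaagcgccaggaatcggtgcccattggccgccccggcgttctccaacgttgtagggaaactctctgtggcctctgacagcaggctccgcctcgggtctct
Ctsk, chr3:95498960-95499259, plus strand: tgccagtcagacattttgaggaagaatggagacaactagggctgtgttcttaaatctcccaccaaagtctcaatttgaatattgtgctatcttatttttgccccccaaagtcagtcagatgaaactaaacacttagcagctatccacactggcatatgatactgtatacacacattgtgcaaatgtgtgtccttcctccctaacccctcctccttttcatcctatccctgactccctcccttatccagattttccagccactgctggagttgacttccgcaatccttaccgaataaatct
Ctsc, chr7:88277835-88278134, plus strand: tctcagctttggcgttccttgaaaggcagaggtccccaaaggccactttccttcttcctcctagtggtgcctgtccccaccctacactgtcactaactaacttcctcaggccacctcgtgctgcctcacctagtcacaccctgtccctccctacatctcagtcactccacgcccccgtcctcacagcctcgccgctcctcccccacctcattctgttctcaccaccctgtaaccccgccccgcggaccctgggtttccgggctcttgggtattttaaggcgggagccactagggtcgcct

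Ctsa and Ctsd, both higher with ritonavir, hold CACGTG at 2 places each, and 4 of the 9 cathepsin windows hold it at least once. In Ctsa the matches begin 12 bases before and at base 6 after the second annotated start, and both have the longer form. In Ctsd they begin 245 and 98 bases before the start, and the nearer one has the longer form. Ctsl has 1 match, 236 bases before its start, and Ctsf, whose value hardly differed with ritonavir, has 1 at 79 bases before. No CACGTG lies in the windows of Ctsk and Ctsz, which were also higher with ritonavir, at 2.21 and 0.53. None lies in those of Ctsc and Ctss or in the first window of Ctsa. Of all 32851 promoter windows 7.15% hold CACGTG and 0.974% the longer form, and of windows of detected genes 9.69% and 1.78%. These are matches of letters, and binding was not measured.

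**Figure D4:**
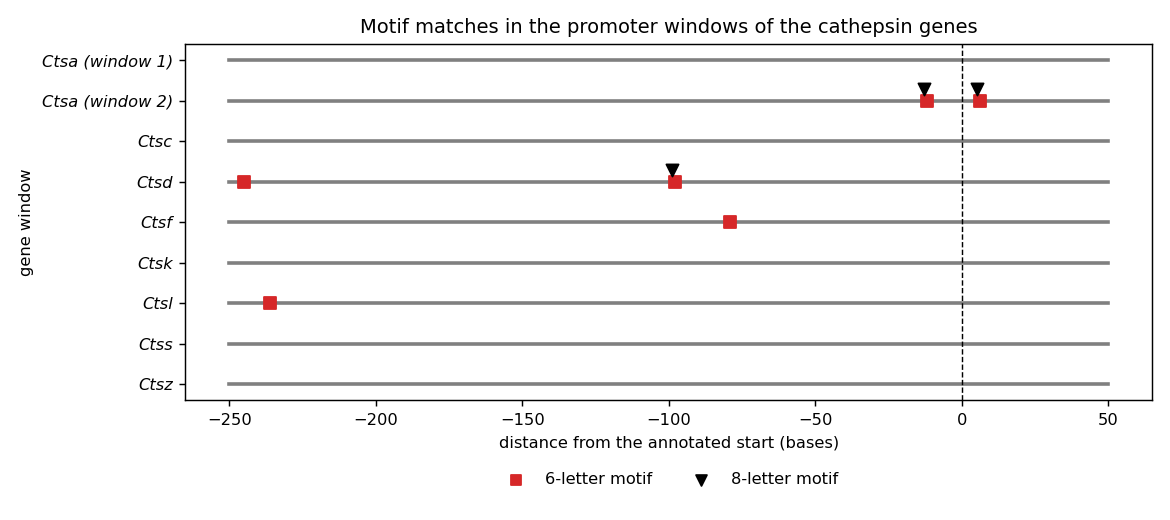
Position of motif matches (first base) in the 9 promoter windows of the cathepsin genes, as distance in bases from the annotated start (dashed line), with red squares for CACGTG and black triangles for TCACGTGA. Matches lie in the second Ctsa window and in those of Ctsd, Ctsf and Ctsl, and the windows of Ctsk, Ctsc, Ctss and Ctsz are empty.

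Of the MiT/TFE family 3 genes were detected, and none differed by 2-fold in any comparison. Between ritonavir and ethanol, Mitf was 0.68 higher, Tfe3 differed by 0.01 and Tfeb by -0.90. With ritonavir and DMSO the values were 0.46, -0.12 and -0.59 against ethanol. Tfec never reached the detection level. Only transcript levels were measured, while these factors are known to be controlled by their movement into the nucleus.

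Tenofovir left the cathepsins close to ethanol. Differences ran from -0.06 for Ctsh to 0.32 for Ctsc, and none of the 10 genes, as 0% of detected genes, was 2-fold apart. The median was 0.10, beside -0.01 for all detected genes, and 8 of the 10 were above 0 where 46.3% of detected genes were. The 8 include Ctss, which was under the detection level on both arrays. Ctsc and Ctsf, at 0.32 and 0.30, were the only members past the yardstick of 0.260. That yardstick was set from this same pair of arrays, so some detected genes pass it by definition. The second probe set of Ctsf differed by 0.07. The other 2 sets of Ctsc, under the detection level on all arrays, differed by -0.02 and -0.38.

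Ritonavir with DMSO, the control of the second experiment, was set against the ethanol array of the first. Ctsk (1.34) and Ctsl (1.21) were again at least 2-fold higher, where 1.52% of detected genes were. Ctsc (-2.56) was at least 2-fold lower, where 2.99% of detected genes were. That value rests on the level under detection, and with low values raised Ctsc differed by -0.50, which is not 2-fold. Ctsa followed at 0.93, Ctsd at 0.64, Ctsz at 0.49 and Ctsb at 0.30, while Ctsh differed by -0.93 (-0.12 with low values raised). This comparison and that of ritonavir with ethanol share the ethanol array, and it crosses the 2 experiments. The median of the 10 genes was 0.39, beside 0.02 for all detected genes.

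Set directly against the ritonavir array, that of ritonavir with DMSO had 9 of 10 cathepsins lower, where 50.9% of detected genes were above 0. None was 2-fold apart, as 4.91% of detected genes were. Ctsk differed by -0.87, Ctsa by -0.41 and Ctsl by -0.39, whereas Ctsd, Ctsz and Ctsb lay within 0.1. The 1 gene above 0 was Ctsc, at 0.73. Ctsc, Ctsh and Ctss were under the detection level on both arrays, so their directions are not relied on. Whether the cells with ritonavir and DMSO also received ethanol is not given in the labels. Vehicle and experiment cannot be told apart here.

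Markers of mature fat cells also differed between these arrays. The mean log2 value of the 10 measured adipocyte markers was 13.57 with ethanol, 10.00 with ritonavir, 12.79 with DMSO, 12.97 with c9,t11-CLA and 11.59 with t10,c12-CLA. Of these markers 8 were at least 2-fold lower with ritonavir than with ethanol, but 4 with ritonavir and DMSO. Adipoq, the adiponectin gene, differed by -4.61 and by -0.16 in these comparisons. Among the cathepsins, Ctsk (2.21 and 1.34), Ctsl (1.59 and 1.21) and Ctsa (1.33 and 0.93) were also nearer to ethanol with DMSO, while Ctsd (0.69 and 0.64) and Ctsz (0.53 and 0.49) hardly differed between the arrays. Preadipocyte and fibroblast markers had a median of 1.17 with ritonavir and of -0.45 with ritonavir and DMSO, each against ethanol. The part of these shifts in the cathepsin values was not tested.

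**Figure D5:**
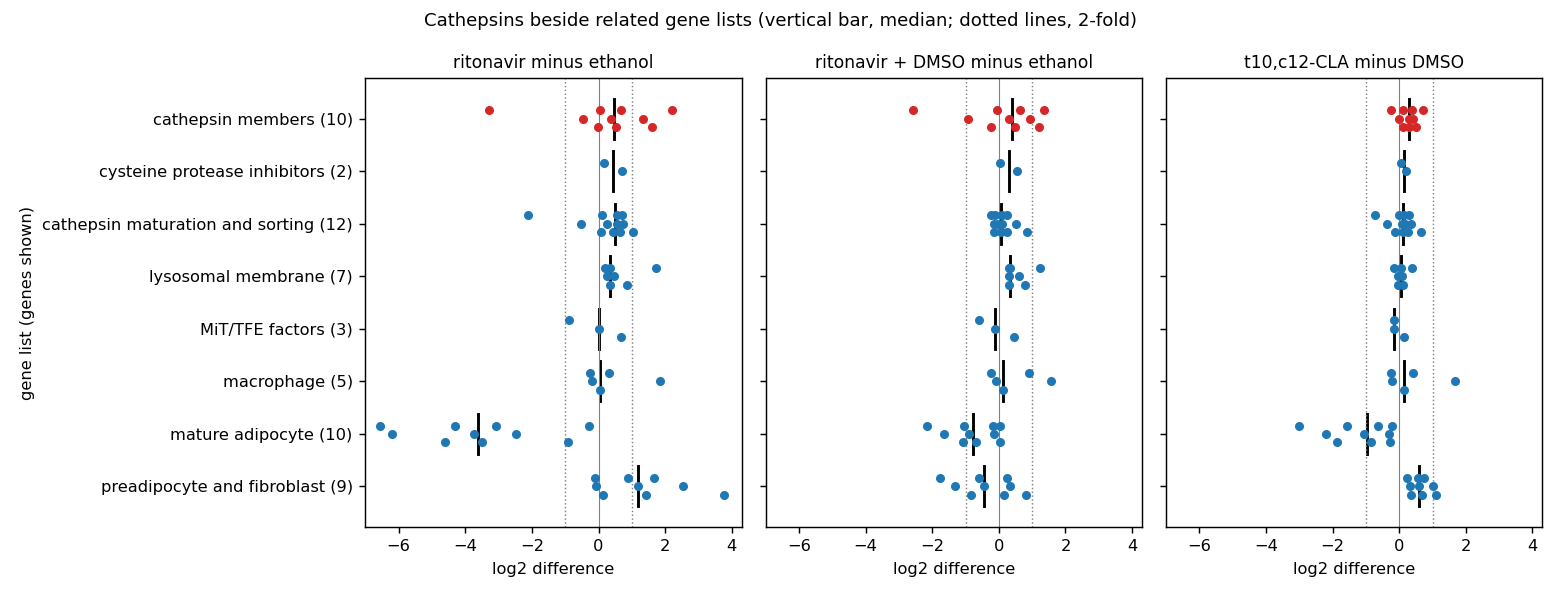
Log2 differences of single genes (points) in 8 gene lists for 3 comparisons, with the median of each list as a vertical bar and 2-fold as dotted lines; all 10 cathepsins are shown in red, and of the other lists the detected genes. The adipocyte markers lie far to the left for ritonavir against ethanol and much nearer 0 with DMSO, while the cathepsin medians are 0.46 and 0.39 in these comparisons.

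Macrophages are rich in cathepsins, and their markers were therefore examined. Of the 14 listed markers 9 stayed under the detection level on all arrays, namely Adgre1, Ptprc, Itgam, Mrc1, Aif1, Cx3cr1, Tyrobp, C1qa and C1qb. Of the other 5, Csf1r (7.43 to 7.66), Fcgr1 (6.86 to 7.11), Cd14 and Cd68 reached the level on all 6 arrays, and Lyz2 on 2. The mean over the list lay between 5.61 and 5.96 on the 6 arrays. Cd68, which encodes a lysosomal membrane glycoprotein, read 6.87 on the ethanol array, 8.71 with ritonavir, 8.43 with DMSO and 10.10 with t10,c12-CLA. Cd14, the gene of a lipopolysaccharide co-receptor, read 7.90, 8.21, 8.81 and 9.24 on these arrays, so both were highest with t10,c12-CLA. Their part in the cathepsin values was not tested. Of the osteoclast list, 5 of 9 genes were detected. None was higher with ritonavir than with ethanol, where 50.2% of all detected genes were. Nfatc1 (-0.04), Dcstamp (-0.20) and Itgb3 (-0.21) lay inside the yardstick, so for them the direction is not relied on. Mmp9 differed by -0.35, with its ritonavir value under the detection level. Acp5, an acid phosphatase, differed by -1.50 but lay above the detection level on the ethanol array alone.

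Both CLA isomers were given at the same dose, for the same time and with the same drug, so their arrays can be set side by side, although without replicates no difference has an interval. DMSO is recorded for the control alone, so a vehicle difference and an isomer's own difference from the control cannot be told apart. With c9,t11-CLA no cathepsin was 2-fold from DMSO, as 0.00807% of detected genes were. Ctsk differed by 0.00, Ctsl by -0.14 and Ctsz by -0.11, and Ctsf had the largest difference among the genes above the detection level on both arrays, 0.39. Ctsh differed by 0.37 on values under that level. The median was 0.13, beside 0.01 for all detected genes, and it was 0.0003 with low values raised to the detection level.

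With t10,c12-CLA none of the 10 genes was 2-fold from DMSO either, where 1.83% of detected genes were. Ctsk was 0.70 higher, and 251 detected genes had a larger upward difference. Ctsf followed at 0.51, Ctsd at 0.41, Ctsa at 0.38 and Ctsb at 0.29. Ctsz (0.00) and Ctsl (0.12) had nearly the same values on both arrays. The median of the 10 genes was 0.29, beside 0.02 for all detected genes, and 8 of the 10 were above 0 where 52.8% of detected genes were. The 8 include Ctss and Ctsh, which were under the detection level on both arrays. With low values raised to that level the median was 0.20.

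Between the isomers, 2.48% of detected genes were 2-fold apart and no cathepsin was. Ctsk had the largest difference, 0.70 higher with t10,c12-CLA than with c9,t11-CLA. Ctsl (0.26), Ctsd (0.21), Ctsa (0.20) and Ctsb (0.12) were higher by less than the yardstick of 0.260, and Ctsc, under the detection level on both arrays, differed by -0.31. The dimmest detected Ctsb probe set differed by 0.90 between the isomers, against 0.12 for the brightest.

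Genes that act on cathepsins were read from the same arrays. The cystatin gene Cstb, whose product inhibits cysteine-type cathepsins within cells, read 13.14 with ethanol and 13.83 with ritonavir, a difference of 0.69. Cst3, the gene of the secreted inhibitor cystatin C, differed by 0.16. These were the only detected genes of the 12 measured inhibitors, and in no comparison did either reach 2-fold. With t10,c12-CLA against DMSO they differed by 0.05 and 0.21.

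Of 12 detected genes for maturation and sorting, 10 were above 0 for ritonavir against ethanol, where 50.2% of all detected genes were, with a median of 0.50. Only Gnptg, a subunit of the enzyme that tags lysosomal proteins with mannose 6-phosphate, was at least 2-fold higher, at 1.04. The gene of the cathepsin-processing protease legumain, Lgmn, was 0.74 higher, and those of the 2 mannose 6-phosphate receptors, M6pr and Igf2r, 0.25 and 0.56. Psap, the gene of prosaposin, was 0.66 higher. Sort1, the gene of the sorting receptor sortilin, differed by -2.11 and Gnptab by -0.52. With DMSO, Sort1 differed from ethanol by -0.23, and the median of the list was 0.08. Sort1 read 11.77 with c9,t11-CLA and 10.75 with t10,c12-CLA, and this difference between the isomers was over 2-fold. For t10,c12-CLA against DMSO, Lgmn was 0.67 and Lrp1 0.35 higher, and Sort1 and Gnptab differed by -0.72 and -0.37.

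The lysosomal membrane list also holds Npc2, whose product is a soluble lysosomal protein. All 7 detected genes of the list were above 0 for ritonavir and for ritonavir with DMSO against ethanol. Of all detected genes 50.2% and 52.0% were, and the medians of the list were 0.35 and 0.33. Npc1, the gene of a lysosomal cholesterol exporter, was at least 2-fold higher in both, at 1.71 and 1.24. Lamp2 was 0.86 and Lamp1 0.34 higher with ritonavir. With t10,c12-CLA against DMSO 4 of the 7 were above 0 and the median was 0.05, with Scarb2 at 0.38 and Npc2 at -0.16.

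Among the 14 other cathepsins and cathepsin-like genes on the array, 3 were detected. Tinagl1, which encodes a matrix protein related to cathepsins but without protease activity, read 8.90 with ethanol, 11.04 with ritonavir, 9.06 with DMSO, 9.09 with c9,t11-CLA and 10.65 with t10,c12-CLA. It was thus high on the same pair of arrays as Ctsk, yet with DMSO it stood 0.16 from ethanol where Ctsk stood at 1.34. Ctso lay between 9.52 and 10.28, lowest with ritonavir. It differed from ethanol by -0.35 with ritonavir and by 0.29 with ritonavir and DMSO. Ctse passed the detection level only on the ethanol and tenofovir arrays. Its differences from ethanol, -1.17 with ritonavir and -0.35 with ritonavir and DMSO, therefore rest on values under that level.

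For each cathepsin whose values spanned at least 1 log2 unit, the 3 detected genes with the nearest profile over the 6 arrays were found, by root mean square difference of centred values. Nearest to Ctsk were Bst2, the gene of the membrane protein tetherin (0.0881), Slc25a30 (0.0920) and Id2, an inhibitor of helix-loop-helix factors (0.114). Nearest to Ctsl were Parp8, Sox4 and Chic1, and to Ctsa Sirpa, Tmcc2 and Dennd2a. Of these, Parp8 reached the detection level on 4 of the 6 arrays, those with ritonavir, on which it was higher. The low end of its profile therefore has no reliable size. Nearest to Ctsd were Tmem231, Glmp, the gene of a glycosylated lysosomal membrane protein, and Slc39a11. Nearest to Ctsc were Sncg, Apoc1 and C1qtnf12. Each was at least 3.2 lower with ritonavir than with ethanol, which follows from their choice by profile. Ctsc reached the detection level on 2 of the 6 arrays, so this match rests largely on values without a reliable size. Pearson's r of the nearest genes with their cathepsin was between 0.983 and 0.999 over the 6 arrays. Such values are common here, since 690 detected genes reached 0.95 with Ctsk and 476 with Ctsc, and all points share the 6 arrays.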

How the data were processed

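Total RNA from 3T3-L1 adipocytes, pooled from 4 replicate experiments per group, was measured per group on a single Affymetrix array, as the labels' protocols state. The table deposited by the authors holds log2 values of 45101 probe sets on 6 arrays. The submitters' processing notes name RMA and Affymetrix Expression Console, with versions not given in the sources used here. Such processing equalises the arrays' distributions, so a shift shared by most genes would be removed. The number of arrays limits the precision.

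Probe sets were named from the platform's annotation, with symbols updated by gene identifier; 34958 had 1 symbol, 932 several (not used) and 9211 were not listed. The detection level is a convention, since the table has no detection calls. No test was made with 1 array per group. Members and lists were chosen with earlier results of these data known. All 10 cathepsins are named, with list members at least 2-fold apart, the largest up to 2 per direction for ritonavir and t10,c12-CLA, and known partners. Counting and profile steps were tested on simulated data. Python 3.11.15, numpy 2.4.6, pandas 2.3.3 and statsmodels 0.14.6 (lowess, span 0.3) were used. Alternatives were other probe sets, raised low values, renewed quantile normalization, lowess and thresholds of 1.5-fold and 3-fold.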

Additional observations from a re-analysis of the deposited data

How the results depend on the processing

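With 1 array per group nothing could be left out in turn. No paired analysis was possible because each group has 1 array. A difference or median was taken as moved if it shifted by more than 0.113, the robust SD of differences between the arrays of tenofovir and ethanol, and a count if it changed by more than 1.5 times. Under quantile normalization again and with sets lacking an x or s suffix, no count or median of the family moved. The suffix setting could change Ctsf alone, which was under 2-fold on both its sets, so the counts there could not move. The deposited values had already been equalised across arrays, so renewed normalization had little to change. Smaller changes in counts were 4 to 3 for ritonavir and 3 to 2 for ritonavir with DMSO against ethanol with low values raised, 3 to 2 in the latter with the mean of all probe sets, and 5 and 3 in place of 4 for ritonavir at 1.5-fold and 3-fold. With the mean of all probe sets the count for ritonavir against ethanol was 2 in place of 4, and the median 0.58. With the second probe set, where a gene has one, that count was 1 and the median 0.26; for ritonavir with DMSO against ethanol they were 1 and 0.10. There Ctsl reversed to -0.40 and -0.44 on a set that never reached the detection level. The threshold of 1.5-fold gave 6 genes for ritonavir with DMSO against ethanol, 2 against ritonavir, 1 for t10,c12-CLA and DMSO and 1 for the pair of isomers; 3-fold left 1 in the first of these. Removing the trend by lowess moved the median of ritonavir with DMSO against ritonavir to -0.29, and raising low values moved that of c9,t11-CLA against DMSO to 0.0003. Ctsk, with 1 probe set above the level throughout, could change only under lowess and renewed quantile normalization, where it stayed over 2-fold from ethanol (2.15 and 2.19 with ritonavir, 1.28 and 1.31 with DMSO). Genes under the detection level, Ctsc with ritonavir above all, have no reliable size.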
